A study of Mus musculus with 12 samples.

Results

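The chaperones and co-chaperones described here are 32 genes outside the strongly inducible heat shock set, among them Hsp90ab1, Hspa8, Hspa5, Hspd1 and 4 subunits of the chaperonin TRiC. Their chromatin was read through the accessible regions assigned to them in a table of 188262 regions on the mouse genome (GRCm38). A region belonged to a gene when it overlapped the gene's protein-coding RefSeq body, or when that body was the nearest one within 100 kb. This gave 170 regions, between 1 and 25 a gene with a median of 4. That a region is assigned to a gene is no evidence that it regulates it.

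The study used ATAC-seq, which maps open chromatin by cutting and tagging it with the Tn5 transposase, on long-term haematopoietic stem cells (LT-HSC) and multipotent progenitors (MPP) of male mice. It compared wild-type (WT) with Phf6 knockout (KO) cells, in 4 groups of 3 libraries. WT mice were Phf6f/Y Rosa26+/+ and carried a floxed allele of Phf6, an X-linked gene for a nuclear zinc-finger protein, without Cre. KO mice were Phf6-/Y Rosa26+/Cre-ERT2, with the allele deleted through a tamoxifen-activated Cre. For LT-HSC, nuclei of 20000 sorted cells were taken 8 weeks after tamoxifen from separate mice. The sources used here do not say how MPP were prepared or whether LT-HSC and MPP libraries with the same number came from 1 animal. Cre-ERT2 was present in every KO library and in no WT library, so its effect and that of Phf6 loss cannot be told apart. The p-values set each difference against the spread between libraries within groups, estimated over all 4 groups together. For MPP it is not known whether that is a spread between mice.

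Molecular chaperones bind unfolded or partly folded proteins and help them reach or keep their native state. HSP70 works in cycles of ATP hydrolysis started by J-domain proteins (HSP40) and ended by nucleotide exchange factors, and HSP90 takes over late-folding clients such as kinases and steroid receptors. Heat shock factors switch on many of these genes when unfolded protein builds up in the cytosol, while the endoplasmic reticulum (ER) has its own unfolded protein response, and stem cells are known to depend on keeping protein synthesis and folding in balance.

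The upstream sequences show which of these genes carry the letters read by those 2 programmes, and they stand here beside the accessibility of the same starts. RefSeq promoter windows of GRCm38.p6, 250 bases before to 50 after a start, were held for 27 of the 32 genes in 36 windows. Hsp90ab1, Hspa8, Hspa9, Hsf1 and Cryab had no window. The ER stress element, CCAAT and CCACG with 9 bases of any kind between them, searched on both strands, was in 3 of the 36 windows (8.33%) and in 39 of all 32851 windows (0.119%). The 3 genes were the ER chaperones below, whose start regions did not pass the test between genotypes in LT-HSC or in MPP. Each sequence gives the 250 bases before the start, 5′ to 3′ on the strand of the gene, with the element in capitals. They are Hspa5 at chr2:34771840-34772089 on the plus strand, Hsp90b1 at chr10:86705445-86705694 on the minus strand, and Dnajc3 at chr14:118937682-118937931 on the plus strand.
Hspa5: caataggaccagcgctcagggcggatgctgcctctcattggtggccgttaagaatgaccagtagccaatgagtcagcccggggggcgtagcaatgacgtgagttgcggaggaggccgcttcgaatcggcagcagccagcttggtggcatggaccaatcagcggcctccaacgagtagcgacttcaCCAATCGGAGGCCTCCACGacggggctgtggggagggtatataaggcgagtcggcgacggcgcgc
Hsp90b1: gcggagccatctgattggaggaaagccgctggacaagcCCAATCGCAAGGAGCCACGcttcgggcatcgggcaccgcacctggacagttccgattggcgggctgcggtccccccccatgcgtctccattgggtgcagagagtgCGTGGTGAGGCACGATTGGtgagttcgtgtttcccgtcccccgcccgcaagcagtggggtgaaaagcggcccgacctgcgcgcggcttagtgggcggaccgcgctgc
Dnajc3: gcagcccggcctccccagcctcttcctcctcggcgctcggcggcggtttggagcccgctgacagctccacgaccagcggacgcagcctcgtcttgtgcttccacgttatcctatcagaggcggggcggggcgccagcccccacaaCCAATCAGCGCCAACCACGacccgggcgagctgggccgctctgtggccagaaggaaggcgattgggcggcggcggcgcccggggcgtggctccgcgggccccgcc

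The first base of the element lay 65 bases before the Hspa5 start and 105 before that of Dnajc3. Hsp90b1 held 2 elements, 212 and 107 bases before its start and in opposite orientations. The short unfolded protein response element TGACGTGG was in 0 of the 36 windows and in 222 of all windows (0.676%), which says only that these letters are not in these windows.

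The heat shock element, searched on both strands as GAA, TTC and GAA or as TTC, GAA and TTC with 2 bases of any kind between neighbours, was in 5 of the 36 windows (13.9%), belonging to 4 genes, and in 198 of all windows (0.603%). The windows of Hspd1 and Hspe1 held the same site, since these genes start back to back. The 2 Dnajb6 windows overlap and also held the same site, so the count of windows exceeds that of separate sites. The 30-base stretches around the sites follow, with the element in capitals and overlapping matches merged. They lie at chr1:55088053-55088082 for Hspe1, chr5:29735844-29735873 for Dnajb6 and chr9:18292260-18292289 for Chordc1, all on the plus strand. None of these start regions passed the test between genotypes in either population. Only full matches were counted. Near matches were not, such as gaagtttccagat of Hspb1 and ttccagaagctac of Cct5 in the sequences below. These counts therefore do not separate genes with the element from genes without it.
Hspe1: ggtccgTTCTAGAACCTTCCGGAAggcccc
Dnajb6: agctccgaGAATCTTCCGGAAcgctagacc
Chordc1: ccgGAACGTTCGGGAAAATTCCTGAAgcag

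The CCAAT box, which overlaps the ER stress element in its first 5 letters, was in 16 of the 36 windows (44.4%) and in 12289 of all windows (37.4%). For 3 genes whose start regions were higher in KO in both populations, Dnajb5, Cct5 and Hspb1, the bases before the start are shown with the box in capitals. The windows are chr4:42949617-42949866 (plus strand) for Dnajb5, chr15:31601847-31602096 (minus strand) for Cct5 and chr5:135887669-135887918 (plus strand) for Hspb1. Dnajb5 held 4 boxes, and Cct5 and Hspb1 held 0. A match to letters is a description and no evidence of binding.
Dnajb5: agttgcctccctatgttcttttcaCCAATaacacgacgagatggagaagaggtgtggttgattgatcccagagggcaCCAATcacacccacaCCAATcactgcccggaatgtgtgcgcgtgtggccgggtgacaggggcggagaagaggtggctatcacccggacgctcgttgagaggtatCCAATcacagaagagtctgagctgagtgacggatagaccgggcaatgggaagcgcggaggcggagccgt
Cct5: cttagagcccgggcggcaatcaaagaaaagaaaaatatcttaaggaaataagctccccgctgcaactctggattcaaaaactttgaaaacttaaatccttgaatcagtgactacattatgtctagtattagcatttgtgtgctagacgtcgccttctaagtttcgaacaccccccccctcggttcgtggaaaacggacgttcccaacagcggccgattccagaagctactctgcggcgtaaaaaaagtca
Hspb1: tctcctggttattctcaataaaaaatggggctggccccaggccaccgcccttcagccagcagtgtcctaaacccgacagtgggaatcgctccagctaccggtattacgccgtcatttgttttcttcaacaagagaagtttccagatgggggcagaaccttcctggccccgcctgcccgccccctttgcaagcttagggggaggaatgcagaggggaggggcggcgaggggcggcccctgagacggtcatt

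The libraries held 22665988 to 48547234 counts in regions. Levels are given in CPM, counts scaled to a common library size, here after TMM factors that even out differences in composition between libraries. The share of counts in regions within 1 kb of a gene end did not overlap between genotypes in LT-HSC, at 37.8% to 38.9% in WT and 39.2% to 39.6% in KO, and in MPP met at 39.2% to 41.0% in WT and 41.0% to 41.4% in KO. Of 275 regions at 10 LT-HSC markers, 186 were lower and 21 higher in WT MPP than in WT LT-HSC, which is the direction the labels give. MPP markers had 73 higher and 39 lower of 144. The region at the Phf6 start stood at 25.4 to 27.3 CPM in WT and 26.5 to 28.8 CPM in KO LT-HSC. In MPP it stood at 30.6 to 32.4 CPM in WT and 27.7 to 29.7 CPM in KO, lower in KO without overlap but not past the test (log2 fold change -0.14, adjusted p = 0.195 by edgeR). This region does not check the deletion, since the sources used here do not say which regions lie in the deleted part. Of 10 regions assigned to Phf6, 0 passed the test in LT-HSC and 1 passed in MPP, where it was higher in KO.

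KO LT-HSC had higher accessibility than WT LT-HSC at many chaperone genes. This comparison is the one the series title names. Of 167 member regions that passed the filter on low counts, 27 were higher in KO and 0 lower, against 3.27% higher and 1.47% lower among all 186373 regions tested (edgeR quasi-likelihood F test, Benjamini-Hochberg adjusted p under 0.05 over all regions). The 3 regions that did not pass the filter all lay upstream of Chordc1. The 27 regions belonged to 19 of the 32 genes, beside 24.3% of all genes with at least 1 higher region. At 25 of the 27 the WT and KO libraries did not overlap, which regions chosen by this test tend to show. The share without overlap among all called regions was not counted. Without KO LT-HSC 2 the number called was 16. The log2 fold changes of the 27 ran from 0.21 to 1.67, with 10 beyond 1.5-fold, and the median over all 167 regions was 0.14 against -0.00 over all regions. Log2 fold changes are KO over WT unless said otherwise, and their errors are standard errors (SE). In ATAC-seq of bulk cells, fewer cells with an open region and less signal per cell cannot be told apart.

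In MPP the same comparison gave 27 higher and 3 lower member regions, against 5.12% higher and 3.59% lower among all regions (edgeR quasi-likelihood test). They belonged to 21 genes with a higher region, beside 32% of all genes, and 2 genes with a lower one, beside 20.8%. The libraries did not overlap at 29 of the 30, again regions chosen by the test and without a share over all called regions beside them. Among member regions, 21 were higher in both populations, which is 77.8% of the LT-HSC calls and 77.8% of the MPP calls. Over all regions, 2767 were higher in both (1.48%), which is 45.4% of the LT-HSC calls and 29.0% of the MPP calls. The 21 regions belonged to 16 genes: Ahsa1, Bag3, Cct2, Cct3, Cct5, Dnaja1, Dnajb2, Dnajb5, Dnajb9, Hsp90ab1, Hspa4, Hspa4l, Hspa8, Hspa9, Hspb1 and Hspd1.

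The genotype difference itself did not pass a test between populations at any member region. In the interaction term of the edgeR quasi-likelihood fit, 0 of 167 regions passed, beside 15 of all regions (0.00805%), and DESeq2 and limma-voom also gave 0. At an unadjusted p under 0.05 there were 8 of 167 regions (4.79%), against 7.56% of all regions.

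For each gene the strongest region at its start, or within 1 kb of a gene end where no window was held, is called its main region here. There were 31, since Hspd1 and Hspe1 share one. In LT-HSC 13 of 31 were higher in KO and 0 lower, beside 10.3% higher and 1.07% lower among the main regions of all genes. With 1 of the 6 LT-HSC libraries left out in turn the count was 6 to 8, lowest without KO 2. In MPP 10 of 31 were higher and 0 lower, beside 13.1% and 2.91%, and all 10 were among the 13. The median log2 fold change of the 31 was 0.19 in LT-HSC and 0.10 in MPP, against 0.07 and 0.05 over the main regions of all 15364 genes.

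**Figure D1:**
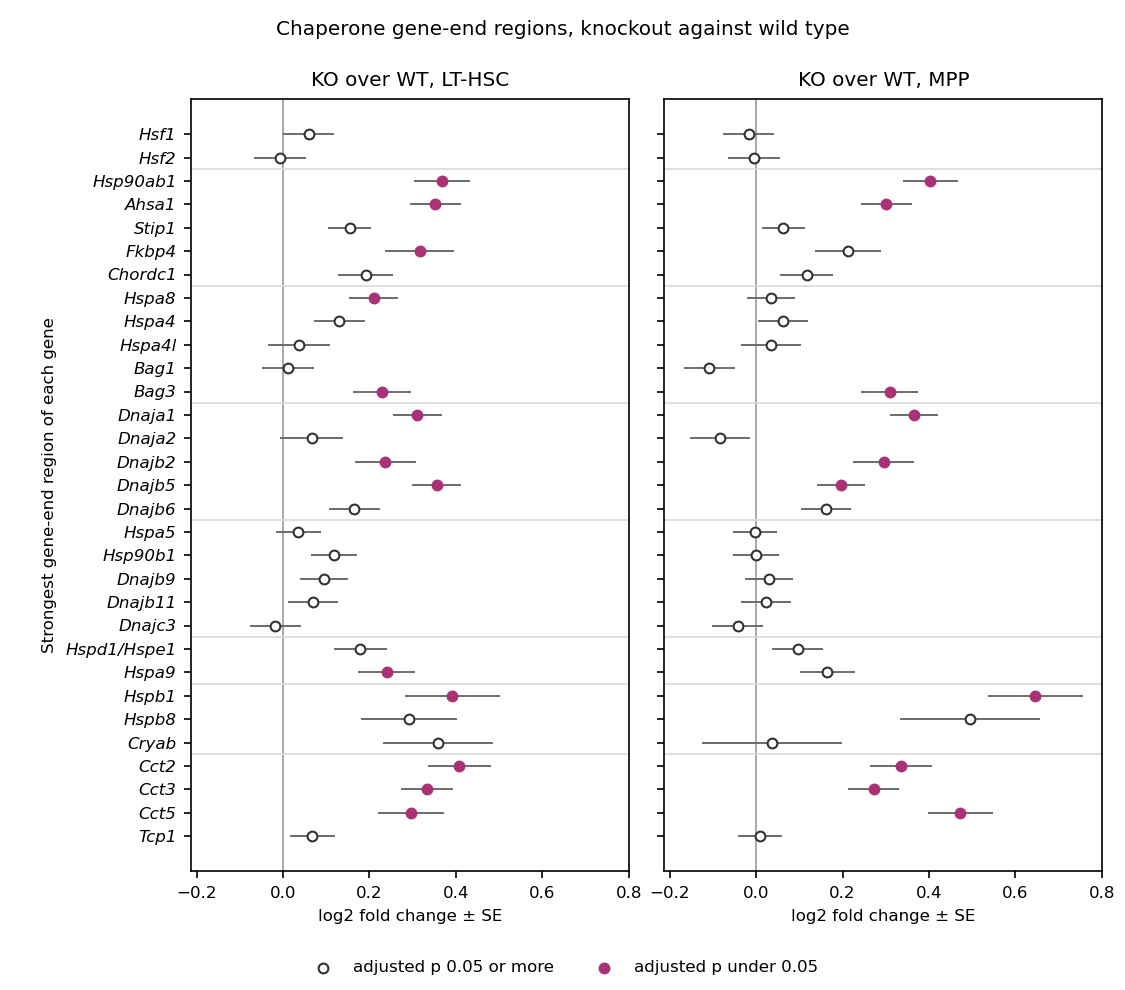
Log2 fold change of KO over WT (points, with bars of 1 SE) at the main region of each chaperone gene, in LT-HSC (left) and MPP (right), with genes in role groups split by grey lines. Filled points passed an adjusted p of 0.05: 13 of 31 in LT-HSC and 10 of 31 in MPP, all of them higher in KO, with open points for the 5 ER chaperones in both panels.

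The scaling moved these counts. With total counts in place of TMM, 7 of the 31 main regions were called in LT-HSC, and with a loess offset, which removes trends with level, 6 were. The calls at Hspa8, Bag3, Dnajb2, Hspa9, Hspb1 and Cct5 were lost under both, and that at Fkbp4 with the loess offset. The number above 0 went from 29 with TMM to 26 and 21. Over all regions, 6093 were called higher in LT-HSC with TMM, 3214 with total counts and 3438 with the loess offset. The share among the main regions of all genes was not counted under these scalings or with the gene-end share below. Whether the members still stood out there was not tested. Of all called regions in LT-HSC, 69.0% were higher in KO with TMM, 45.2% with total counts, 55.7% with the loess offset and 83.2% in DESeq2. In MPP these shares were 58.8%, 47.8%, 50.9% and 67.1%, with 10 main regions called as higher by edgeR under TMM and under total counts, and 9 higher and 1 lower with the loess offset. No member region called between genotypes changed direction under any of these. In a fit that included the gene-end share of each library, 15 of the 27 LT-HSC calls and 13 of the 30 MPP calls were lost. The main regions still called there were 3 in LT-HSC, those of Hsp90ab1, Ahsa1 and Dnajb5, and 6 in MPP, those of Hsp90ab1, Ahsa1, Bag3, Dnaja1, Hspb1 and Cct5. Summed signal at erythroid markers was also higher in KO, at 145 to 155 CPM against 131 to 139 CPM in LT-HSC and 129 to 131 CPM against 113 to 118 CPM in MPP. The test called 2 of 26 erythroid regions higher in LT-HSC, 6 in MPP and 0 lower, beside 3.27% and 5.12% of all regions higher. For LT-HSC markers the sums were 1567 to 1584 CPM against 1427 to 1447 CPM in LT-HSC, and 1042 to 1058 CPM against 935 to 1006 CPM in MPP. Of their 275 regions, 12 were called higher and 0 lower in LT-HSC, and 34 and 3 in MPP. Endothelial markers, at 464 to 478 CPM against 440 to 455 CPM, were also higher in KO LT-HSC. So was the sum of T cell markers, at 72.9 to 79.0 CPM against 67.9 to 72.4 CPM. By region, however, the test called 1 of 22 T cell regions higher and 2 lower in LT-HSC, with a median log2 fold change of -0.02. Of 111 endothelial regions it called 4 higher and 0 lower. In MPP the sums of both lists overlapped between genotypes. The sums of MPP, B cell and macrophage markers overlapped in both populations. The part of the marker signal in the results was not tested.

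The main regions of the heat shock factors did not pass between genotypes. Hsf1, the main activator of the heat shock response, whose region also touches an end of Bop1, had a log2 fold change of 0.06 ± 0.06, adjusted p = 0.623 in LT-HSC by the edgeR quasi-likelihood test and -0.02 in MPP. Hsf2, a related factor, gave -0.01 and -0.01. A region 35.4 kb from the Hsf2 body (chromosome 10, 57447938 to 57448362) passed in LT-HSC, with 4.82, 4.30 and 4.37 CPM in WT and 6.96, 6.83 and 6.41 CPM in KO LT-HSC. Every KO library lay above every WT one, and the difference was 0.59 ± 0.11, adjusted p = 0.00171 (edgeR). In MPP it was 0.25 ± 0.10, adjusted p = 0.117.

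At HSP90 and its helpers, 3 of 5 main regions were higher in KO LT-HSC and 2 of 5 in KO MPP. Hsp90ab1 encodes the constitutive cytosolic HSP90, and its main region (chromosome 17, 45572989 to 45573559) read 43.0, 39.9 and 49.4 CPM in the WT LT-HSC libraries and 55.2, 57.4 and 58.2 CPM in KO. In MPP the values were 61.9, 55.5 and 58.0 CPM in WT and 76.9, 75.8 and 79.0 CPM in KO. All KO libraries exceeded all WT libraries of their population. The log2 fold changes were 0.37 ± 0.07, adjusted p = 0.0011 in LT-HSC and 0.40 ± 0.06, adjusted p = 0.000228 in MPP (edgeR quasi-likelihood test, Benjamini-Hochberg).

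Ahsa1 encodes the co-chaperone that speeds up the ATPase of HSP90. Its start region (chromosome 12, 87266165 to 87266596), which also touches an end of Vipas39, held 43.2, 41.5 and 46.7 CPM in WT and 58.2, 53.4 and 56.2 CPM in KO LT-HSC. In MPP it held 47.2, 47.5 and 48.7 CPM in WT and 57.4, 59.9 and 59.4 CPM in KO. Again no library of one genotype reached the other, and edgeR gave 0.35 ± 0.06, adjusted p = 0.000672 and 0.30 ± 0.06, adjusted p = 0.00149. Both calls passed in every one of the alternatives run.

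Fkbp4 encodes an immunophilin that rides on HSP90 in steroid receptor complexes. Its start region read 29.1, 35.1 and 29.3 CPM in WT and 37.8, 43.7 and 34.9 CPM in KO LT-HSC, ranges that overlapped. The difference of 0.32 ± 0.08, adjusted p = 0.0184 (edgeR) was lost without WT LT-HSC 1 (adjusted p = 0.099), WT 3 (0.071) or KO 2 (0.172). In MPP it was 0.21 ± 0.08, adjusted p = 0.0783. Stip1, which bridges HSP70 and HSP90, and Chordc1, a zinc-binding HSP90 partner, had start regions at 0.15 ± 0.05, adjusted p = 0.0668 and 0.19 ± 0.06, adjusted p = 0.074 in LT-HSC (edgeR). A second Chordc1 region 1.29 kb into the gene (chromosome 9, 18293331 to 18293781) passed in MPP, with 2.43, 2.17 and 2.74 CPM in WT and 3.78, 4.30 and 3.96 CPM in KO. Its KO libraries lay wholly above, by 0.74 ± 0.14, adjusted p = 0.00101, while LT-HSC gave 0.39 ± 0.13, adjusted p = 0.0848 (edgeR).

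Among the cytosolic HSP70 group, the largest differences lay past the end of Hspa8 and not at its main region. Hspa8 encodes HSC70, the constitutive HSP70 that also uncoats clathrin vesicles. Its main region (chromosome 9, 40800782 to 40801187) read 82.7, 82.2 and 81.9 CPM in WT and 95.8, 94.2 and 95.3 CPM in KO LT-HSC. The KO libraries were the higher ones by 0.21 ± 0.06, adjusted p = 0.0273 (edgeR), a call that did not pass when any 1 of the 6 libraries was left out (adjusted p = 0.0627 to 0.0823). In MPP the difference was 0.03 ± 0.06, adjusted p = 0.764.

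At the far end of Hspa8, meaning the gene-body end opposite the main region, the region chromosome 9, 40805221 to 40805703 held 10.0, 8.91 and 13.5 CPM in WT and 17.5, 18.1 and 22.7 CPM in KO LT-HSC. In MPP it held 11.1, 9.46 and 11.7 CPM and 18.9, 15.1 and 22.5 CPM. The groups did not overlap in either population, and the KO over WT ratio was 1.78 in LT-HSC and 1.76 in MPP. On the log2 scale this was 0.83 ± 0.13, adjusted p = 0.000306 and 0.81 ± 0.13, adjusted p = 0.000206 (edgeR).

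Further regions followed downstream. The region 1.13 kb past the body rose by 1.04 ± 0.20, adjusted p = 0.00271 in LT-HSC and 0.98 ± 0.19, adjusted p = 0.00181 in MPP (edgeR), though DESeq2 gave adjusted p = 0.0648 and 0.0791. The region 2.27 kb past it read 7.17, 3.57 and 15.1 CPM in WT and 17, 20.3 and 30.6 CPM in KO LT-HSC, a difference of 1.38 ± 0.26, adjusted p = 0.00168. Its WT libraries spread widely, with WT 3 close below KO 1. In MPP it was 0.97 ± 0.23, adjusted p = 0.00826 (edgeR), lost without WT MPP 2 (adjusted p = 0.0584), and DESeq2 gave 0.0517 and 0.196.

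**Figure D2:**
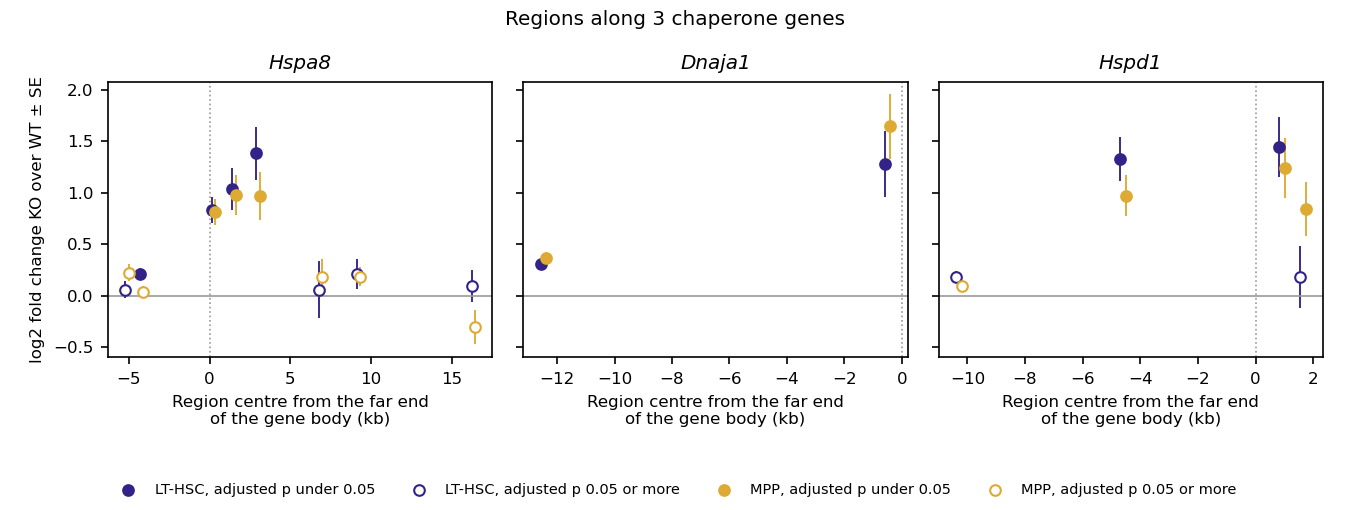
Log2 fold change of KO over WT (points, bars of 1 SE) against the distance of a region's centre from the far end of the gene body (kb), for Hspa8, Dnaja1 and Hspd1, with LT-HSC and MPP points set slightly apart. Filled points passed an adjusted p of 0.05, and the regions at or just past the far end lay at 0.81 or above in at least 1 population while those at the main regions lay at 0.37 or below.

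Hspa4 and Hspa4l encode HSP110 proteins, which exchange the nucleotide of HSP70. Their start regions gave 0.13 and 0.04 in LT-HSC and did not pass in either population. The differences lay elsewhere. A region 8.06 kb before Hspa4 (chromosome 11, 53308539 to 53308966) read 24.9, 23.6 and 19.7 CPM in WT and 31.8, 28.8 and 31.3 CPM in KO LT-HSC, and 5.04, 5.65 and 5.85 CPM and 7.29, 8.94 and 7.36 CPM in MPP. KO was above WT in every library of both populations, by 0.43 ± 0.09, adjusted p = 0.00349 and 0.52 ± 0.11, adjusted p = 0.00222 (edgeR).

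In Hspa4l, the region 0.813 kb inside the start (chromosome 3, 40746203 to 40746649) held 2.87, 2.47 and 3.04 CPM in WT and 4.57, 4.42 and 5.30 CPM in KO LT-HSC. The MPP values were 2.81, 3.13 and 2.60 CPM and 3.90, 4.86 and 5.26 CPM. KO and WT did not overlap, with 0.76 ± 0.14, adjusted p = 0.00175 and 0.72 ± 0.14, adjusted p = 0.00122 (edgeR). A weak region in the Hspa4 body also passed in both (adjusted p = 0.0469 and 0.0466 by edgeR). Its KO libraries met the WT range in LT-HSC, and its call was lost without WT 1, 2 or 3 or KO 1 or 2 there (adjusted p = 0.0676 to 0.217) and without each of the 6 MPP libraries (0.0617 to 0.171).

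Bag1 and Bag3 encode nucleotide exchange factors of HSP70, and Bag3 also hands clients to selective autophagy. At the Bag3 start (chromosome 7, 128523357 to 128523766) the libraries read 27.7, 25.2 and 29.4 CPM in WT and 30.9, 33.3 and 32.2 CPM in KO LT-HSC. In MPP they read 26.6, 25.7 and 25.3 CPM and 32.7, 31.7 and 31.9 CPM. The genotypes did not overlap, and the MPP difference was 0.31 ± 0.07, adjusted p = 0.00372. That in LT-HSC, 0.23 ± 0.07, adjusted p = 0.0431 (edgeR), was lost when any library but WT 3 was left out (adjusted p = 0.0651 to 0.193). At the Bag1 start the genotypes gave 0.01 ± 0.06, adjusted p = 0.944 in LT-HSC and -0.11 ± 0.06, adjusted p = 0.257 in MPP (edgeR).

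J-domain proteins bring clients to HSP70. Dnaja1, a widely expressed cytosolic one, was higher in KO at both of its regions. The start region (chromosome 4, 40722193 to 40722794), shared with an end of Aptx, held 65.7, 73.0 and 68.4 CPM in WT and 89.5, 84 and 83.3 CPM in KO LT-HSC. In MPP it held 82.3, 80.0 and 77.0 CPM and 106, 105 and 97.1 CPM. WT libraries all lay below KO ones, by 0.31 ± 0.06, adjusted p = 0.00131 and 0.37 ± 0.06, adjusted p = 0.000148 (edgeR). The far-end region of Dnaja1 (chromosome 4, 40734190 to 40734737) was weak, with 0.660, 0.674 and 0.521 CPM in WT and 1.87, 1.70 and 0.802 CPM in KO LT-HSC. Its differences of 1.28 ± 0.32, adjusted p = 0.0175 and 1.64 ± 0.31, adjusted p = 0.00132 (edgeR) came without overlap of libraries. In MPP the KO over WT ratio was 3.13. The LT-HSC call was lost without WT 3 (adjusted p = 0.0552), KO 1 (0.123) or KO 2 (0.0848), and with the gene-end share in the fit (0.118).

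Dnajb5, a cytosolic HSP40, had a start region (chromosome 4, 42949627 to 42950113) at 43.7, 43.6 and 45.4 CPM in WT and 57.2, 57.0 and 55.5 CPM in KO LT-HSC. This gap of 0.36 ± 0.06, adjusted p = 0.000361 (edgeR) was wide beside the spread of either group. In MPP, with 49.6 to 52.5 CPM in WT and 57.4 to 60.3 CPM in KO, it was 0.20 ± 0.06, adjusted p = 0.0228, lost without WT MPP 2 or 3 or KO MPP 2 or 3 (adjusted p = 0.0556 to 0.108). A region 2.16 kb past the far end of Dnajb5 went the other way in MPP. It read 5.49, 6.29 and 6.56 CPM in WT and 4.64, 4.10 and 3.85 CPM in KO, with no overlap, and gave -0.55 ± 0.12, adjusted p = 0.00372 there and -0.27 ± 0.13, adjusted p = 0.242 in LT-HSC (edgeR). The MPP call was lost with the gene-end share in the fit (adjusted p = 0.0864).

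Dnajb2, a J-domain protein that steers ubiquitinated clients to the proteasome, had a start region at 34.6 to 36.5 CPM in WT and 41.3 to 43.6 CPM in KO LT-HSC. The groups did not overlap, and the difference was 0.24 ± 0.07, adjusted p = 0.0476 (edgeR), which was lost when any 1 of the 6 libraries was left out (adjusted p = 0.0826 to 0.157). With every library kept, the call was also lost with total counts (adjusted p = 0.109), the loess offset (0.166) and the gene-end share in the fit (0.640). In MPP the start region read 31.3, 31.1 and 24.7 CPM and 36.8, 35.1 and 35.5 CPM, with WT 3 below the rest. The MPP difference of 0.29 ± 0.07, adjusted p = 0.00898 did not pass without that library (adjusted p = 0.0542, log2 fold change 0.20).

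Dnaja2, another cytosolic J-domain protein, was higher in KO LT-HSC at a region 0.651 kb inside its start, with 10.7, 11.2 and 10.4 CPM in WT and 13.6, 14.9 and 14.1 CPM in KO. That gap of 0.40 ± 0.09, adjusted p = 0.0071 (edgeR) was lost without KO LT-HSC 2 (adjusted p = 0.0533) and with the gene-end share in the fit (0.114). Its start region gave 0.07 in LT-HSC and -0.08 in MPP. In MPP a region 2.27 kb from the body had 3.81 to 4.16 CPM in WT and 5.55 to 5.63 CPM in KO, or 0.50 ± 0.12, adjusted p = 0.0087.

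Dnajb6, which holds back protein aggregation, had the most regions of any member, 25, and its start region gave 0.16 ± 0.06, adjusted p = 0.104 in LT-HSC and 0.16 ± 0.06, adjusted p = 0.0809 in MPP (edgeR). In MPP 2 of its regions were lower in KO: one at its far end, -0.50 ± 0.13, adjusted p = 0.0133, and one 67.9 kb past it, -0.31 ± 0.09, adjusted p = 0.0248. The first was lost without KO MPP 2 or 3 (adjusted p = 0.0748 and 0.0863), and the second without WT MPP 2, KO MPP 2 or KO MPP 3 (0.0828 to 0.179). Another, 56.2 kb past the body, was higher by 0.63 ± 0.20, adjusted p = 0.0465 and lost without each of the 6 libraries (0.0522 to 0.154).

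At the ER chaperones 0 of 5 main regions passed in LT-HSC and 0 of 5 in MPP. Hspa5 encodes BiP, the HSP70 of the ER. Its start region (chromosome 2, 34771716 to 34772147), whose upstream sequence holds an ER stress element, read 92.8, 91.3 and 100.01 CPM in WT and 98.1, 94.0 and 99.2 CPM in KO LT-HSC, and 108 to 109 CPM and 106 to 112 CPM in MPP. WT and KO ranges overlapped in both, at 0.04 ± 0.05, adjusted p = 0.749 and -0.00 ± 0.05, adjusted p = 0.983 (edgeR). Hsp90b1, the HSP90 of the ER, gave 0.12 ± 0.05, adjusted p = 0.205 in LT-HSC and -0.00 ± 0.05 in MPP at its start. Dnajb9, Dnajb11 and Dnajc3, J-domain partners of BiP, gave 0.09, 0.07 and -0.02 in LT-HSC.

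Other ER chaperone regions did pass. A region 7.62 kb past the Dnajb9 body (chromosome 12, 44197857 to 44198275) held 22.3, 21.0 and 19.4 CPM in WT and 27.8, 24.6 and 28.8 CPM in KO LT-HSC, without overlap, a difference of 0.37 ± 0.08, adjusted p = 0.00475 (edgeR). In MPP, at 7.62 to 7.95 CPM and 9.41 to 10.0 CPM, it was 0.32 ± 0.09, adjusted p = 0.0208 and lost without WT MPP 1, WT MPP 2 or KO MPP 2 (adjusted p = 0.0609 to 0.108). In MPP alone a region 4.91 kb past Hsp90b1 and one in the Dnajc3 body passed, at 0.39 ± 0.10, adjusted p = 0.0104 and 0.81 ± 0.24, adjusted p = 0.0304 (edgeR). The Hsp90b1 call was lost without WT MPP 3 or KO MPP 3 (0.0582 and 0.0926). The Dnajc3 call, whose WT and KO libraries overlapped, was lost when any library but KO MPP 1 was left out (0.0547 to 0.248).

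The mitochondrial chaperonin showed its differences inside and past the Hspd1 gene. Hspd1 and Hspe1 encode HSP60 and its lid HSP10 and share a start region (chromosome 1, 55087836 to 55088421). It read 49.2, 53.4 and 50.5 CPM in WT and 59.5, 58.7 and 54.9 CPM in KO LT-HSC. KO was higher in each library, yet the difference of 0.18 ± 0.06, adjusted p = 0.0837 (edgeR) did not pass, and in MPP it was 0.10 ± 0.06, adjusted p = 0.331. The body region chromosome 1, 55082077 to 55082788 held 1.32, 0.843 and 2.14 CPM in WT and 3.28, 3.75 and 3.83 CPM in KO LT-HSC. In MPP it held 1.90, 1.5 and 2.64 CPM and 4.37, 3.90 and 3.34 CPM. These groups did not overlap, with ratios of 2.51 and 1.96. The log2 fold changes were 1.33 ± 0.22, adjusted p = 0.000498 and 0.97 ± 0.20, adjusted p = 0.00227 (edgeR), and both calls passed in all alternatives run.

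A weaker region 0.602 kb past the far end of Hspd1 (chromosome 1, 55076602 to 55077231) read 0.315, 0.337 and 0.521 CPM in WT and 1.02, 1.17 and 1.02 CPM in KO LT-HSC. It was higher in all KO libraries of both populations, by 1.44 ± 0.30, adjusted p = 0.00407 and 1.24 ± 0.29, adjusted p = 0.0072 (edgeR). The MPP call was lost without KO MPP 2 (adjusted p = 0.0829), and both calls with the gene-end share in the fit (0.0753 and 0.0728). A region 1.42 kb past that end passed in MPP alone, at 0.84 ± 0.26, adjusted p = 0.0396, and was lost without each of the 6 libraries (0.0521 to 0.152).

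Hspa9 encodes mortalin, the HSP70 of the mitochondrial matrix. Its main region read 37.3 to 42.7 CPM in WT and 45.8 to 49.2 CPM in KO LT-HSC. The ranges did not overlap, and the difference of 0.24 ± 0.07, adjusted p = 0.0326 (edgeR) was lost when any library but WT 1 was left out (adjusted p = 0.0596 to 0.142). A region 4.40 kb from the body was higher in KO in both populations. It held 7.46, 6.29 and 7.56 CPM in WT and 9.50, 9.80 and 10.3 CPM in KO LT-HSC, or 0.47 ± 0.11, adjusted p = 0.00803, lost without WT 2 (0.052). In MPP it gave 0.36 ± 0.09, adjusted p = 0.0106 (edgeR), lost without KO MPP 2 or 3 (0.0669 and 0.111). A region in the Hspa9 body passed in LT-HSC at 0.125 ± 0.0836 CPM in WT and 0.407 ± 0.0336 CPM in KO (SD, n = 3), with 1.67 ± 0.50, adjusted p = 0.045 (edgeR). The call did not pass when any 1 of the 6 libraries was left out (0.0505 to 0.181).

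Small heat shock proteins hold unfolded clients without using ATP. At the Hspb1 start (chromosome 5, 135887631 to 135888380) the libraries read 6.71, 6.71 and 6.02 CPM in WT and 8.40, 8.31 and 8.86 CPM in KO LT-HSC. In MPP they read 5.64, 5.40 and 5.04 CPM and 6.98, 8.44 and 9.62 CPM. KO was higher throughout, by 0.65 ± 0.11, adjusted p = 0.000446 in MPP, a call that passed in every alternative run. The LT-HSC difference of 0.39 ± 0.11, adjusted p = 0.0345 (edgeR) was lost when any 1 of the 6 libraries was left out (adjusted p = 0.0588 to 0.105). Hspb8, a partner of Bag3, gave 0.29 ± 0.11, adjusted p = 0.124 in LT-HSC and 0.49 ± 0.16, adjusted p = 0.0512 in MPP. Cryab, alpha-B-crystallin, gave 0.36 ± 0.13, adjusted p = 0.0998 and 0.04 ± 0.16, adjusted p = 0.918 (edgeR).

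The chaperonin TRiC folds actin and tubulin inside a double ring of related subunits, of which 4 are members. At Cct2 the start region (chromosome 10, 117063532 to 117064043) held 30.9, 33.4 and 28.7 CPM in WT and 41.1, 39.0 and 43.6 CPM in KO LT-HSC. In MPP it held 41.3, 37.2 and 33.9 CPM and 45.6, 45.2 and 51.0 CPM. The genotypes did not overlap, at 0.41 ± 0.07, adjusted p = 0.00134 and 0.34 ± 0.07, adjusted p = 0.00344 (edgeR). With the gene-end share in the fit both calls were lost, at 0.26 (adjusted p = 0.095) and 0.18 (0.199). The Cct3 start region, shared with Tsacc, read 61.5, 60.5 and 55.7 CPM in WT and 75.0, 72.4 and 76.5 CPM in KO LT-HSC. It too was higher in each KO library, by 0.33 ± 0.06, adjusted p = 0.00134, and in MPP by 0.27 ± 0.06, adjusted p = 0.004 (edgeR). These calls too were lost with the gene-end share in the fit (adjusted p = 0.0689 and 0.147).

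The Cct5 start region (chromosome 15, 31601535 to 31601986), shared with Atpsckmt, read 31.7, 28.1 and 24.6 CPM in WT and 37.2, 38.2 and 42.1 CPM in KO MPP. Its KO libraries lay above the WT ones by 0.47 ± 0.08, adjusted p = 0.00027. In LT-HSC, at 27.5 to 32.4 CPM and 36.7 to 37.4 CPM, the difference was 0.30 ± 0.08, adjusted p = 0.0221 (edgeR), lost when any library but WT 1 was left out (adjusted p = 0.0531 to 0.0981) and with the gene-end share in the fit (0.367). Tcp1, the subunit that names the complex, gave 0.07 ± 0.05, adjusted p = 0.49 in LT-HSC and 0.01 ± 0.05, adjusted p = 0.938 in MPP. Thus 3 of 4 TRiC main regions were called as higher in each population. With the gene-end share in the fit none of the 3 LT-HSC calls passed, and in MPP the Cct5 call did.

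**Figure D3:**
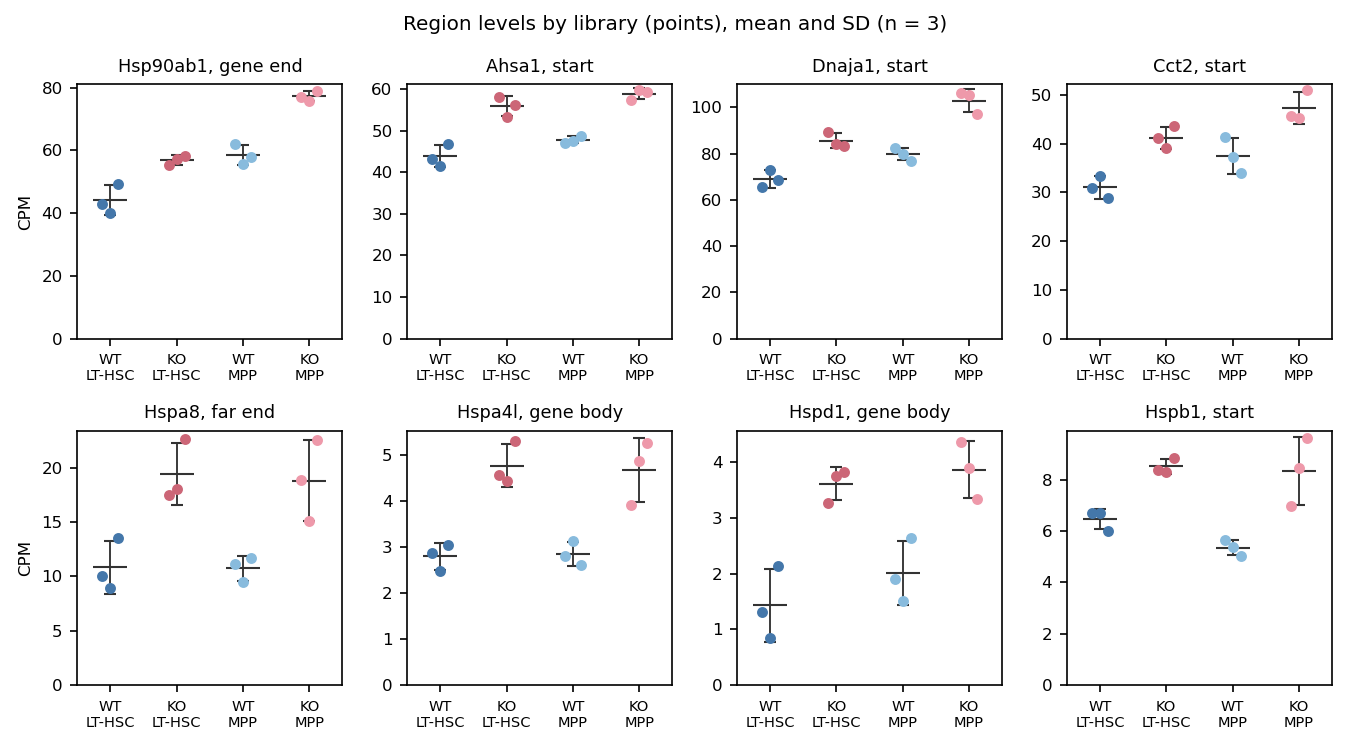
CPM of 8 chaperone regions in each of the 12 libraries (points), with group mean and SD (n = 3), on axes that start at 0. The panels hold main regions called in both populations. For Hspa8, Hspa4l and Hspd1 they hold the region with the lowest p between genotypes in LT-HSC. Regions so chosen tend to separate. In every panel the KO libraries lie above the WT libraries of the same population, among them the Hspd1 body region, whose libraries run from 0.843 to 4.37 CPM.

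By role, main regions higher in KO LT-HSC were 0 of 2 for heat shock factors, 3 of 5 for HSP90 and its co-chaperones, 2 of 5 for cytosolic HSP70 with its exchange factors and 3 of 5 for cytosolic HSP40. They were 0 of 5 for ER chaperones, 1 of 2 for mitochondrial chaperones, 1 of 3 for small heat shock proteins and 3 of 4 for TRiC. In MPP they were 0 of 2, 2 of 5, 1 of 5, 3 of 5, 0 of 5, 0 of 2, 1 of 3 and 3 of 4 in the same order. Over all their regions, the mitochondrial genes had 5 of 15 higher in LT-HSC and 4 of 15 in MPP, and the ER genes 1 of 24 and 3 of 24. Beside these stand 3.27% and 5.12% of all regions, and 10.3% and 13.1% of the main regions of all genes. The ER count in LT-HSC, 4.17%, lies near the first of these, and 0 of 5 main regions cannot be set apart from such shares. The groups were not tested against each other.

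When the counts of all regions of a gene were summed, 11 of the 32 genes were higher in KO LT-HSC and 0 lower, beside 8.09% higher and 8.93% lower of 18829 genes (edgeR). In MPP 12 were higher and 0 lower, beside 15.4% and 13.9%. The summed signal of all member regions was 2006 to 2049 CPM in WT and 2266 to 2321 CPM in KO LT-HSC. In MPP it was 2198 to 2389 CPM in WT and 2484 to 2562 CPM in KO. These sums are on the TMM scale of the region fit, not that of the gene fit, and no sum over other regions stands beside them. With total counts in place of TMM, the median log2 fold change over all regions in LT-HSC moved from -0.00 to -0.06. The part of the scaling in the sums was not tested.

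The other genes of these pathways were read from lists chosen, like the members, with earlier results on these data known. The inducible heat shock genes, such as Hspa1a and Hsph1, had 30 higher and 0 lower of 57 regions in LT-HSC and 36 and 0 in MPP. Their medians were 0.38 and 0.61 on the log2 scale, and a region in the Hsph1 body gave 1.34 ± 0.14 (SE) in LT-HSC. Other HSP70 and HSP90 co-chaperones had 9 higher and 2 lower of 115 in LT-HSC and 15 and 1 in MPP. The remaining chaperonin and prefoldin subunits had 8 and 0 of 41, and 4 and 3. Genes of the ER unfolded protein response had 7 and 2 of 168, and 14 and 2. Proteasome genes had 8 and 0 of 85, and 10 and 1. Read against 3.27% and 5.12% of all regions higher, the ER list lay near the background in LT-HSC.

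MPP differed from LT-HSC at many chaperone genes, as they did over the genome. In WT, 62 member regions were higher and 47 lower in MPP of 167, against 34.6% and 35.2% of all regions (edgeR quasi-likelihood test). In KO, 60 were higher and 44 lower, against 33.3% and 34.4%. At main regions, 19 of 31 were higher and 5 lower in WT, beside 36.1% and 32.7% of the main regions of all genes, and 14 and 4 in KO, beside 34.1% and 31.5%. With the loess offset these became 9 and 8 in WT and 9 and 7 in KO, so the lean toward MPP at main regions depended on the scaling.

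**Figure D4:**
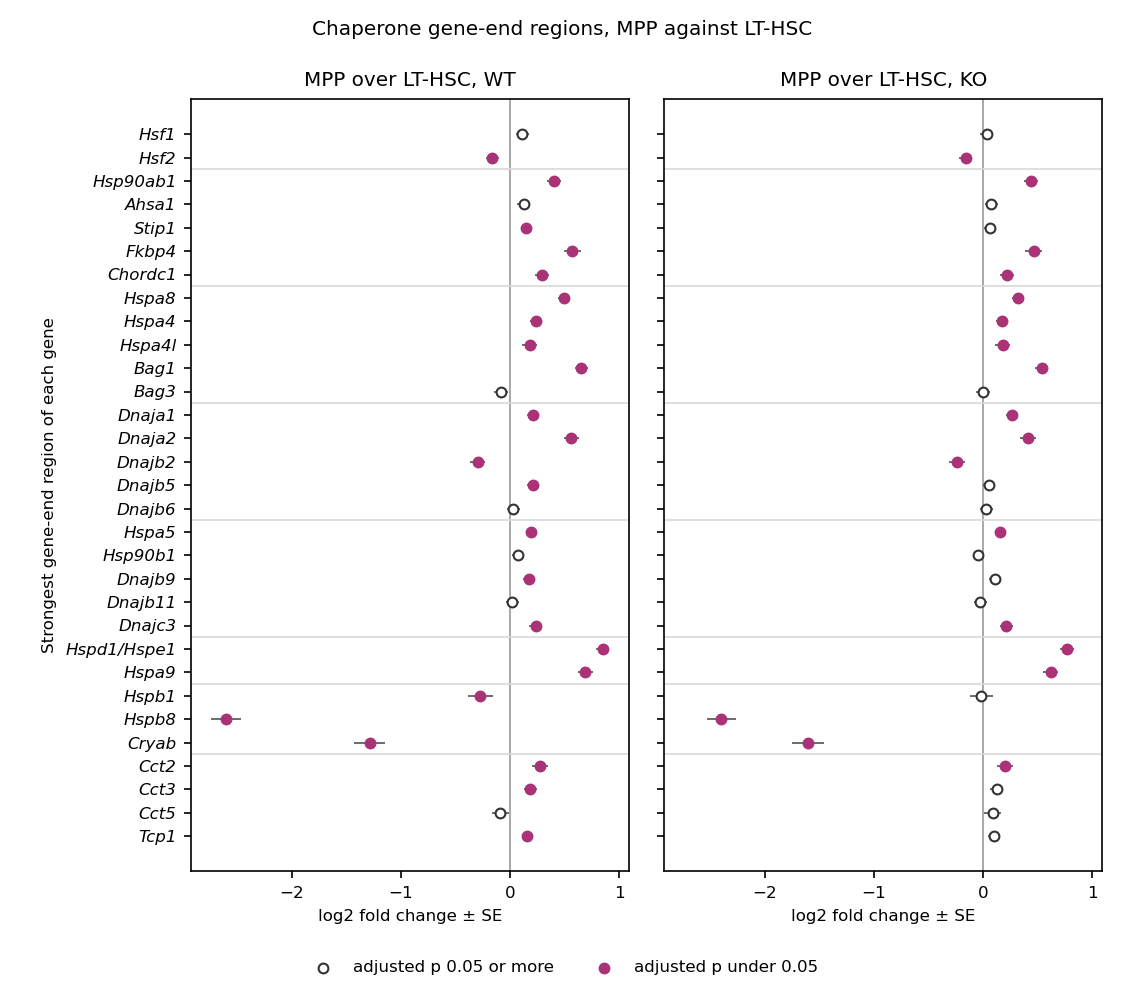
Log2 fold change of MPP over LT-HSC (points, bars of 1 SE) at the main region of each chaperone gene, in WT (left) and KO (right). Filled points passed an adjusted p of 0.05: 19 higher and 5 lower of 31 in WT and 14 higher and 4 lower in KO, a lean to the right that a loess offset turned into 9 and 8, and 9 and 7, with Hspb8 and Cryab far to the left of 0.

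Mitochondrial chaperones were higher in MPP at their main regions. The shared Hspd1 and Hspe1 start read 49.2 to 53.4 CPM in WT LT-HSC and 84.9 to 101 CPM in WT MPP, a log2 fold change of 0.85 ± 0.06, adjusted p = 6.57e-14 (edgeR). In KO it was 0.77. Hspa9 gave 0.69 ± 0.07, adjusted p = 6.01e-11 in WT and 0.62 in KO. The populations did not overlap at either region.

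Of the cytosolic genes, Bag1 was higher in MPP, at 72.1, 69.0 and 64.2 CPM in WT MPP against 41.7, 46.3 and 42.4 CPM in WT LT-HSC. Its region, shared with Chmp5, differed by 0.65 ± 0.06, adjusted p = 1.97e-11 in WT and 0.54 in KO (edgeR). The main regions of Fkbp4, Dnaja2 and Hspa8 gave 0.57, 0.56 and 0.50 in WT. The member region with the lowest p between populations, 8.74 kb past Hspa8, was far higher in MPP, with means of 2.47 ± 0.585 CPM in WT LT-HSC and 18.7 ± 1.16 CPM in WT MPP (SD, n = 3). That is 2.92 ± 0.11, adjusted p = 4.38e-20 (edgeR), while KO over WT gave 0.21 in LT-HSC and 0.18 in MPP.

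Of the small heat shock proteins, Hspb8 and Cryab went the other way in both genotypes. The Hspb8 start read 12.5, 12.9 and 10.7 CPM in WT LT-HSC and 2.51, 1.79 and 1.59 CPM in WT MPP. LT-HSC were higher in every library, by -2.60 ± 0.14, adjusted p = 4.09e-17 in WT and -2.40 in KO (edgeR, MPP over LT-HSC). Cryab, whose region also touches 2310030G06Rik, gave -1.29 ± 0.14, adjusted p = 1.93e-09 in WT and -1.61 in KO. Hspb1 gave -0.27 ± 0.11, adjusted p = 0.0321 (edgeR) in WT and -0.02 in KO, where it did not pass. The WT call was lost without WT LT-HSC 1 or 2 or WT MPP 2 or 3 (adjusted p = 0.0605 to 0.103), with the loess offset (0.0852), in DESeq2 (0.0583) and with the gene-end share in the fit (0.145).

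LT-HSC-leaning distal regions also lay near Hspa4 and Dnajb9. The Hspa4 region 8.06 kb before the gene fell from 19.7 to 24.9 CPM in WT LT-HSC to 5.04 to 5.85 CPM in WT MPP, at -2.05 ± 0.10, adjusted p = 4.87e-18 (edgeR). The Dnajb9 region 7.62 kb past the gene gave -1.43 in WT and -1.48 in KO. Both were higher in KO within each population, as given above, so the 2 differences were seen at the same regions.

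**Figure D5:**
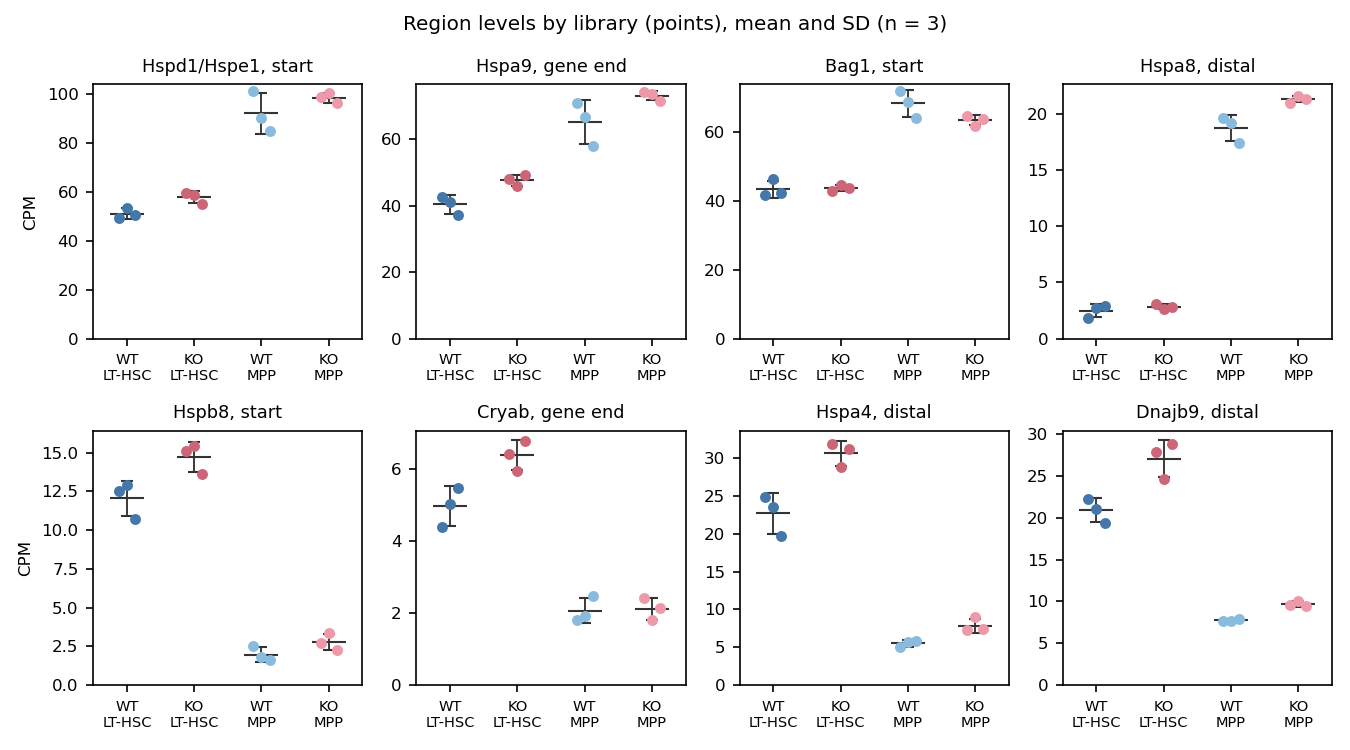
CPM of 8 chaperone regions in each of the 12 libraries (points), with group mean and SD (n = 3), on axes that start at 0. The Hspd1/Hspe1, Hspa9 and Bag1 regions and the distal Hspa8 region lie higher in MPP, and the Hspb8, Cryab, Hspa4 and Dnajb9 regions lie higher in LT-HSC.

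Per length, main regions of the members spanned a wide range of levels. In WT LT-HSC the means were highest at Stip1 with 235 CPM per kb, Hspa5 with 219, Tcp1 with 205 and Hspa8 with 203. In WT MPP the same 4 genes led in another order, with 286 CPM per kb at Hspa8, 261 at Stip1, 251 at Hspa5 and 228 at Tcp1. The small heat shock proteins were the 3 lowest in each. In WT LT-HSC they had 18.9 CPM per kb at Hspb8, 8.64 at Hspb1 and 8.03 at Cryab, while in WT MPP Hspb1 with 7.15 stood above Cryab with 3.34 and Hspb8 with 3.08.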

How the data were processed

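The deposited table held raw read counts per region for all 12 libraries, which the authors had not normalized. Tools listed in the submitters' processing notes are featureCounts, DESeq2 1.22.1, MACS2 2.1.1, Bowtie2 and cutadapt, with the build GRCm38. The sources used here do not state settings, filters or how the union of regions was made.

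Counts were fitted with edgeR 4.0.16 (R 4.3.3; TMM factors, filterByExpr, quasi-likelihood F test, 2-sided) on all 12 libraries with 1 mean per group. Of 188262 regions, 186373 were tested and p-values were adjusted by Benjamini-Hochberg over all of them, with a threshold of 0.05. Regions were placed against 21900 protein-coding RefSeq genes of GRCm38. That table gives no strand, which came from the promoter windows for 27 members. Elsewhere the far end is the gene-body end opposite the main region. On simulated data for KO against WT in LT-HSC over 186373 regions, the fit recovered 51 of 100 regions changed 1.5-fold and 95 of 100 changed 2-fold, with 6 false calls. Regions with low counts were left out of the changed ones, and all regions shared 1 spread. Far fewer regions were changed than were called in the data. The recovery and false calls therefore do not carry over to weak regions or to the real calls.

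Named are the main region of each member and each member region called between genotypes. A region past Hspa8, with the lowest p between populations, was chosen after its values were seen. Genes of other lists are named from those with the lowest p, up to 3 a list. The members, lists and tests were chosen with earlier results of these data known. Alternatives were RLE factors, total counts, a loess offset, 2 filters, DESeq2 1.42.0, limma-voom (limma 3.58.1), fits of only the groups compared, a replicate block, the gene-end share as a covariate, other rules of assignment and each library left out. A block within genotype for the population comparisons was chosen after seeing the data. Replicate libraries differed beyond sampling noise, at 1.57 to 3.26 chi-square units a degree of freedom, and none was counted as a duplicate.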

Additional observations from a re-analysis of the deposited data

How the results depend on the processing

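With each library's share of counts at gene ends in the fit (the covariate), KO against WT called 1865 regions in LT-HSC, 12 of them members, in place of 8834 and 27. In MPP it called 5604 with 17 members, in place of 16230 and 30. MPP against LT-HSC then called 86074 regions with 62 members in WT, in place of 130002 and 109, and 60 members in KO, in place of 104. That share is partly confounded with genotype in these libraries. Regions that overlap a gene body alone gave 17 member calls in LT-HSC, 17 in MPP, and 54 in WT and 45 in KO between populations. That rule leaves out at least the 82 intergenic regions of the 170 member regions, so lower counts follow in part from fewer regions. The share called among all regions that overlap a gene body was not counted. The interaction called 15 regions in all, and 27 with total counts, 33 with a loess offset, 67 with DESeq2, 8 with limma-voom and 24 with the covariate, with 0 members in each.

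Leaving out 1 library at a time gave 3404 to 6586 regions and 16 to 20 member regions in LT-HSC (lowest without KO 2). It gave 6 to 8 member main regions, and 13 to 15 member genes. In MPP it gave 6435 to 14169 regions (lowest without KO MPP 3), 20 to 28 member regions, 8 to 12 main regions and 17 to 21 genes. For the interaction it gave 0 to 31 regions and 0 members. Between populations it gave 121959 to 127171 regions and 101 to 109 members in WT, and 116526 to 120457 and 95 to 98 in KO.

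Same-numbered KO and WT libraries did not deviate together (r = -0.04 to 0.03 over regions). Between populations within a genotype each library correlated best with its own number (r = 0.05 to 0.11), a hint from the data only. The sources used here do not pair the libraries, so the numbers were not taken as pairs. A block within genotype gave 112 member calls between populations in WT and 108 in KO, in place of 109 and 104. With the replicate block, LT-HSC had 11280 regions and 27 members called, MPP 19066 and 34, and the interaction 48 and 0.

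Direction reversed in 8 cases, all between populations at main regions. In WT these were Stip1 (-0.0799), Hspa5 (-0.0149), Dnajb9 (-0.0214) and Tcp1 (-0.0520) with the loess offset and Hspa4l (-0.0152) with the covariate. In KO they were Hspa5 (-0.0142) with the loess offset, and Hspa4l (-0.0216) and Cct2 (-0.0723) with the covariate. Of the named values in LT-HSC, 331 of 427 kept direction and side of the threshold and 96 lost their call, and in MPP 412 of 474 and 62. On simulated data at the depth of the LT-HSC libraries, 51 of 100 regions changed 1.5-fold were called. These were not among the weak regions and all regions shared 1 spread. A change of that size can thus go uncalled with 3 libraries a group.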
